A study of Mus musculus with 6 samples.

Results

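The genes described here make the inhibitory transmitter GABA or build the GABA-A receptor, and they were measured in the mouse cerebellum with and without the cell adhesion molecule L1cam. The members are Gad1, Gad2, Gabra2, Gabra3, Gabrb1, Gabrb2 and Gabrg1, taken as every probe set that the array annotation assigns to one of these symbols alone. This gave 7 probe sets, 1 per gene, of 12422 tested, which cover 8251 named genes. Each of 6 Affymetrix Murine Genome U74Av2 arrays holds the cerebellum RNA of 1 mouse at postnatal day 11. The 3 knockout arrays came from L1CAM knockout (-/Y) males of strain 129S2/SvPasCrlf, and the 3 others came from wild type siblings of that strain, whose sex the labels do not give. The series' design text calls the knockout line congenic 129Sv, and the altered part of L1cam is not given in the sources used here. All mice were otherwise untreated as far as the labels say.

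GABA is made from glutamate by glutamic acid decarboxylase, of which Gad1 and Gad2 encode the 2 forms. It is packed into vesicles, released by Purkinje, Golgi, basket and stellate cells of the cerebellum, and opens the GABA-A receptor, a chloride channel assembled from several subunits. Alpha subunits, with a neighbouring gamma, shape the response to benzodiazepines, beta subunits take part in binding GABA, and the makeup of the receptor changes as the cerebellum matures. In the cerebellum Gabra2 and Gabrg1 are known from Bergmann glia and Gabra3 from Golgi cells. Gabra6 and Gabrd, which are not members, are known from maturing granule cells.

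Receptor subunit genes lie in clusters. In the RefSeq gene table of GRCm38.p6, used here for gene order, Gabrg1, Gabra2, Gabra4 and Gabrb1 follow each other on chromosome 5 with 1 unrelated protein-coding gene, Cox7b2, among them. Gabrb2 stands next to Gabra6 on chromosome 11. Gabra3 lies on the X chromosome between Magea10 and Gabrq, with 36 protein-coding genes between it and L1cam. Gad1 and Gad2 are both on chromosome 2, apart from each other. The promoters of the 3 measured genes of the chromosome 5 cluster are shown because Gabra2 was the member whose genotype groups stood apart, while Gabrg1 and Gabrb1 beside it overlapped. Of all probe sets 10.4% had groups that did not overlap, so this choice is no result about the cluster. A relation between promoter and genotype difference was not tested. Each is the 250 bases before the outermost RefSeq transcription start in GRCm38.p6, 5' to 3' on the gene's strand, with capitals for the dinucleotide CG. Gabra2 is at chr5:71095850-71096099 on the minus strand, Gabrg1 at chr5:70842618-70842867 on the minus strand and Gabrb1 at chr5:71657671-71657920 on the plus strand.
Gabra2: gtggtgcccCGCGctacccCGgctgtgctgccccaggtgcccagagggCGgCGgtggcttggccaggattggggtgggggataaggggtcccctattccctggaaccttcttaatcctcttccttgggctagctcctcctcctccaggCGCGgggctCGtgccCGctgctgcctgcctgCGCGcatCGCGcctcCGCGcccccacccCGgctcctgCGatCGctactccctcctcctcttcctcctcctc
Gabrg1: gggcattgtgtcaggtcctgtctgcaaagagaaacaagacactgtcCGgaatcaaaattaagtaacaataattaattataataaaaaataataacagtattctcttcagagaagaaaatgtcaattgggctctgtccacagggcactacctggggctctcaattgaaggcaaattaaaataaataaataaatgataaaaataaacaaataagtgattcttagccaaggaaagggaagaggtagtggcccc
Gabrb1: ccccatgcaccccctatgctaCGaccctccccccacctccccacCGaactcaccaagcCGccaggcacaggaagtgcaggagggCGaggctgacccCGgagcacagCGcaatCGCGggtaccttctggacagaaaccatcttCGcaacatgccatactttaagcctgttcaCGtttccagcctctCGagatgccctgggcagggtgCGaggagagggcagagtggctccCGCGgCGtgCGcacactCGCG

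The neighbours differed in base composition. Gabra2 held 18 CG dinucleotides in its 250 bases with a GC content of 70.0%, and Gabrb1 held 18 with 64.4%, whereas Gabrg1 held 1 with 35.6%. Over 27025 RefSeq promoters of the same length the median was 6, and 80.5% had 18 or fewer. All 7 members had a promoter in that table. Gad1 held 17 CG dinucleotides, Gad2 held 13, Gabrb2 held 8 and Gabra3 none. For Gad1, Gad2 and Gabrb2 the start used was not at the edge of the gene in the RefSeq gene table. The letters TATAAA, searched on both strands, stood in 3 of the 7, namely Gad1, Gabra3 and Gabrb2, and in 13.0% of all promoters. The GC box letters GGGCGG, also on both strands, stood in 3 of the 7, namely Gad1, Gabra2 and Gabrb2, and in 33.0% of all. The E-box letters CANNTG, which read the same on both strands, stood in 5 of the 7 and in 66.1% of all. None of these 3 motifs overlapped another in a member, and each GGGCGG contains 1 of the CG dinucleotides counted above.

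All values below are RMA log2 values as the authors deposited them, and a difference is the knockout mean minus the wild type mean on that scale. Probe sets bind their targets with different strength, so levels of different genes were not ranked against each other. For each gene the percentile of its mean level among all probe sets shows only how near it lay to the bottom of the range. In whole tissue, fewer cells of a type and less RNA per cell cannot be told apart.

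Of the synthesis enzymes, Gad1 was nearly equal in both genotypes. Gad1, the form known for supplying most GABA in the brain, read 11.32, 11.50 and 11.49 in the wild type arrays and 11.28, 11.48 and 11.54 in the knockout arrays. The groups overlapped fully, and in each genotype the array numbered 1 was the lowest. The means were 11.43 ± 0.10 (SD, n = 3) in wild type and 11.43 ± 0.14 (SD, n = 3) in the knockouts. The difference of -0.0026 had a 95% interval of -0.19 to 0.18, so the interval runs from 0.878-fold to 1.13-fold of the wild type level (limma adjusted p = 0.996). The sign of so small a difference turned after median centring, where it was 0.029, and it ran from -0.062 to 0.073 with 1 array left out.

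Gad2, the form known for association with synaptic vesicles, was dim, with its mean level at percentile 13.2. It read 6.75, 6.92 and 6.68 in wild type and 6.61, 6.80 and 6.61 in the knockouts. Wild type 2 was the highest array and knockouts 1 and 3 the lowest, and knockout 2 lay above wild type 1 and 3. The difference was -0.11 (SE 0.081, 95% interval -0.29 to 0.07) and did not pass in limma (adjusted p = 0.932). It was -0.043 without wild type 2. Within an array, Gad1 exceeded Gad2 by 4.65 ± 0.14 (SD, n = 3) in wild type and by 4.76 ± 0.14 (SD, n = 3) in the knockouts, and these log2 ratios overlapped between genotypes. The size of such a ratio depends on the probes, and only its comparison between arrays can be read.

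Of the alpha subunits, Gabra2 was the member with the largest difference. It read 8.56, 8.56 and 8.42 in wild type and 8.37, 8.39 and 8.29 in the knockouts. Every knockout array lay below every wild type array, though wild type 3 and knockout 2 were close. The means were 8.51 ± 0.081 (SD, n = 3) and 8.35 ± 0.048 (SD, n = 3), and the difference of -0.16 (SE 0.065, 95% interval -0.31 to -0.016) is 1.12-fold lower in the knockouts. Gabra2 did not pass in limma (adjusted p = 0.922, unadjusted p = 0.0333), and its 2-sided exact permutation p of 0.1 is the smallest that 3 arrays against 3 allow. Among all probe sets, 10.4% had groups that did not overlap, and 6.63% had all knockout arrays lower. A share of 5.08% had an unadjusted p under 0.05, and 2.62% had it with a lower knockout mean. With 7 members, a single one on each count is too few to set their share apart from these backgrounds. The groups of Gabra2 also did not overlap after quantile normalization, median centring or cyclic loess, where 9.71%, 9.95% and 10% of all probe sets did not overlap and 4.31%, 3.25% and 4.56% had all knockout arrays lower. The Gabra2 difference stayed between -0.21 and -0.13 over all settings that kept it, with unadjusted p-values from 0.0171 to 0.104 in limma.

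Gabra3, the alpha subunit encoded near L1cam, was dim, at percentile 9.18. It read 6.55, 6.43 and 6.45 in wild type and 6.32, 6.57 and 6.20 in the knockouts. Knockout 2 was the highest of all 6 arrays and knockouts 1 and 3 the lowest, so the knockouts enclosed the wild type values. The difference was -0.11 (SE 0.091, 95% interval -0.32 to 0.089; limma adjusted p = 0.932). Knockout arrays decided its size, since it was -0.22 without knockout 2 and -0.032 without knockout 3. The Gabra2 over Gabra3 ratio within an array averaged 2.03 ± 0.085 log2 (SD, n = 3) in wild type and 1.99 ± 0.15 (SD, n = 3) in the knockouts, with overlapping groups.

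**Figure D1:**
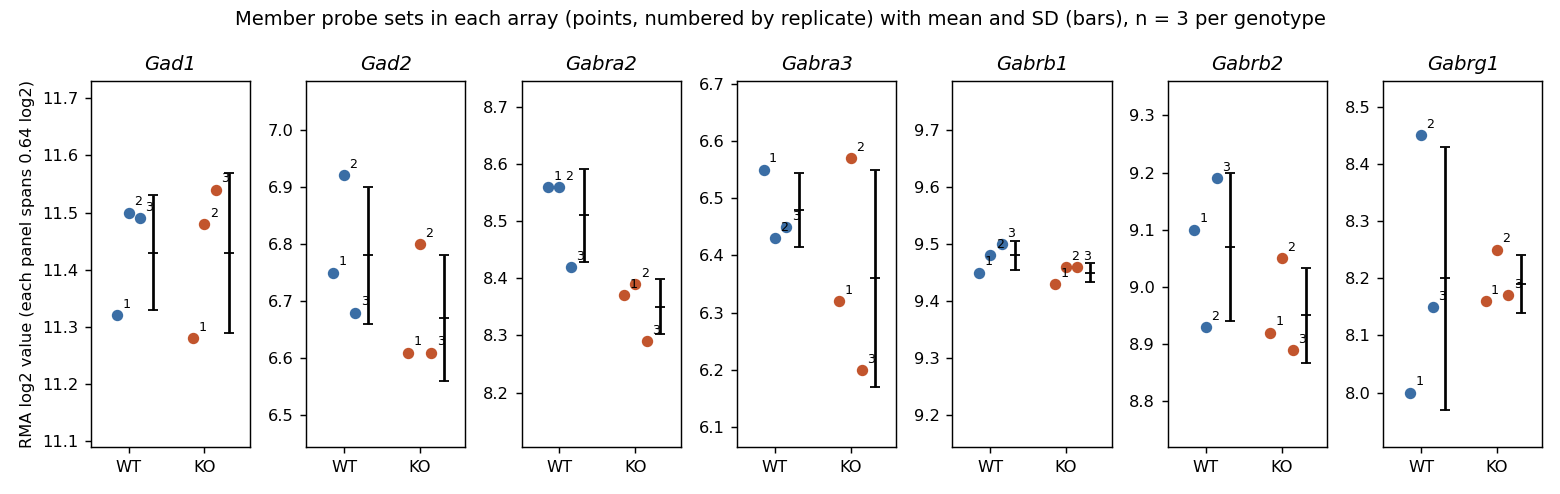
RMA log2 values of the 7 members in each array, in panels that all span the same log2 height, with points numbered by replicate and bars for the mean and SD of 3 arrays per genotype. Only Gabra2 has its wild type values (8.42 to 8.56) wholly above its knockout values (8.29 to 8.39), and Gabrb1 shows the narrowest spread.

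Of the beta subunits, Gabrb1 hardly varied. It read 9.45, 9.48 and 9.50 in wild type and 9.43, 9.46 and 9.46 in the knockouts, a range of 0.067 over 6 arrays. Its residual SD of 0.021 lay at percentile 0.966 of all probe sets, where the median was 0.086. The difference was -0.026 (95% interval -0.15 to 0.10; limma adjusted p = 0.969), which bounds it between 0.900-fold and 1.07-fold, and it was 0.0058 after median centring. The interval is wider than the arrays' own spread because limma draws a low variance towards the level of the other probe sets.

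Gabrb2, a beta subunit of mature cerebellar receptors, read 9.10, 8.93 and 9.19 in wild type and 8.92, 9.05 and 8.89 in the knockouts. Wild type 1 and 3 were above all knockout arrays, but wild type 2 lay among them. The difference was -0.12 (SE 0.079, 95% interval -0.30 to 0.057; limma adjusted p = 0.927). It was -0.19 without wild type 2 and -0.062 without wild type 3. Within an array, Gabrb1 exceeded Gabrb2 by 0.40 ± 0.13 log2 (SD, n = 3) in wild type and by 0.49 ± 0.077 (SD, n = 3) in the knockouts, and the groups overlapped.

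The gamma subunit Gabrg1 was the most variable member in wild type. It read 8.0, 8.45 and 8.15 there and 8.16, 8.25 and 8.17 in the knockouts. Both the lowest and the highest array were wild type, with the knockouts between them. The SD was 0.23 in wild type and 0.05 in the knockouts, and the residual SD lay at percentile 93.0 of all probe sets. The difference was -0.0098 (SE 0.10, 95% interval -0.24 to 0.22; limma adjusted p = 0.989), and its sign was not stable: it was 0.11 without wild type 2, 0.0085 without knockout 1 and 0.00054 without knockout 3, and -0.11 without wild type 1. Gabra2 and Gabrg1, neighbours on chromosome 5, differed within an array by 0.31 ± 0.23 log2 (SD, n = 3) in wild type and 0.16 ± 0.047 (SD, n = 3) in the knockouts, with overlapping groups. Gabra2 minus Gabrb1 in the same cluster was -0.97 ± 0.10 (SD, n = 3) and -1.10 ± 0.054 (SD, n = 3), and these too overlapped, because wild type 3 at -1.08 lay below knockout 1 at -1.06 and knockout 2 at -1.07.

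As a group, the 7 members had lower knockout means in 7 cases as deposited, with a median of -0.11. Of all probe sets 62.3% were also lower, and their median was -0.023. That background covers dim and bright probe sets together and was not split by level. Of the probe sets at an unadjusted p under 0.05 in limma, 48.3% were higher, and 62.1% once dim probe sets were left out. After quantile normalization or cyclic loess 6 of the 7 were lower, against 52.2% of all probe sets, and after median centring 4 of the 7, against 44.6%. The members that turned were Gabrg1 in all 3 scalings and Gad1 and Gabrb1 after median centring. The median of the members was -0.082, -0.082 and -0.078 in these 3 scalings. No member passed an adjusted p of 0.05 in limma, nor did any of the 12422 probe sets (0%, smallest adjusted p = 0.841), while 631 had an unadjusted p under 0.05. Per array, the median deviation of the members from their 6-array means was -0.093 in knockout 1, 0.044 in knockout 2 and -0.11 in knockout 3, and 0.019, 0.062 and 0.032 in wild type 1, 2 and 3. Knockout 2 thus lay among the wild type arrays. The array's controls for the 3' and 5' ends of Gapdh give a gap that grows as RNA is shortened, and knockout 1 had the widest, at 0.668 log2 against at most 0.13 in the other 5 arrays. Without knockout 1, Gabra2 was -0.17, Gabra3 -0.093, Gabrb2 -0.10 and Gad2 -0.077.

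**Figure D2:**
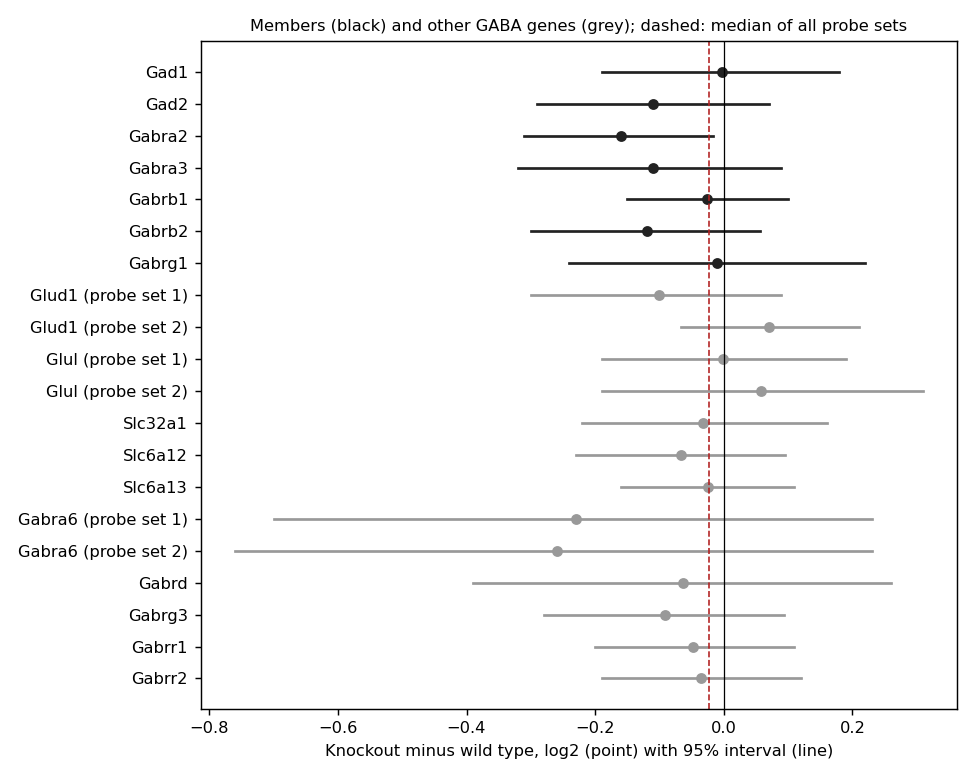
Knockout minus wild type differences (log2, points) with 95% intervals (lines) for the members in black and the other measured genes of GABA receptors, synthesis and transport in grey, beside 0 (solid) and the median of all probe sets, -0.023 (dashed). Gabra2 is the gene shown whose interval lies wholly below 0, and Gabra6 has the widest intervals.

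The other genes of the pathway gave no call either. Of 19 GABA-A subunit genes listed, 10 were measured by 11 probe sets. All 11 had a lower knockout mean as deposited, against 62.3% of all probe sets. Their median of -0.091 was -0.051 after quantile normalization. This list includes the members Gabra2, Gabra3, Gabrb1, Gabrb2 and Gabrg1 and both Gabra6 probe sets, so its count is not separate from that of the members. None of the 11 passed in limma. Gabra6, the alpha subunit of granule cells, differed by -0.23 and -0.26 at its 2 probe sets. The first read 11.90, 12.54 and 12.69 in wild type and 11.80, 12.11 and 12.52 in the knockouts, and its residual SD lay at percentile 99.8 of all. Its 95% interval of -0.70 to 0.23 was therefore wide (limma adjusted p = 0.932). Gabrd, the delta subunit of extrasynaptic receptors, differed by -0.063 and read from 9.43 in knockout 1 to 10.03 in knockout 3. Gabrg3 differed by -0.091, and the rho subunits Gabrr1 and Gabrr2, known from retina, by -0.048 and -0.035. Within an array, Gabra6 exceeded Gabra2 by 3.87 ± 0.48 log2 (SD, n = 3) in wild type and 3.79 ± 0.40 (SD, n = 3) in the knockouts, with overlapping groups.

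Among genes of GABA synthesis, transport and breakdown, 7 of 14 listed were measured by 9 probe sets. Knockout means were higher in 2 and lower in 7, none passed in limma, and the median was -0.025. The members Gad1 and Gad2 are among these probe sets. For this list and those that follow, the share lower over all probe sets was 62.3% as deposited. Slc32a1, the transporter that loads GABA into vesicles, differed by -0.033 (95% interval -0.22 to 0.16). The membrane transporters Slc6a12 and Slc6a13, which take up GABA outside synapses, differed by -0.067 and -0.025. Glul, the glutamine synthetase of glia, differed by 0.058 and -0.00085 at 2 probe sets, and Glud1, glutamate dehydrogenase, by 0.071 and -0.10. Of 20 genes of GABA-B receptors and the inhibitory postsynapse, 12 were measured by 13 probe sets, with 9 higher, 4 lower, none past the threshold in limma and a median of 0.014. Gphn, the gephyrin scaffold of inhibitory synapses, differed by 0.0038, and Gabbr1, a GABA-B receptor subunit, by -0.0097. The smallest unadjusted p-values of that list were those of Trak1 (difference 0.11), Gabarapl2 (difference -0.11) and Dmd (difference -0.072). Of 14 genes of chloride transport and glycine receptors, 9 were measured by 11 probe sets, with 1 higher, 10 lower, none past the threshold in limma and a median of -0.049. The chloride exporter Slc12a5 differed by -0.041 and the importer Slc12a2 by -0.046. The smallest unadjusted p-values there belonged to Wnk1 (difference -0.094), Car2 (difference -0.13) and Glra1 (difference -0.072). The groups of Wnk1 did not overlap at this dim probe set (percentile 1.53), as in 10.4% of all probe sets. At its other probe sets, at percentiles 16.4 and 70.1, Wnk1 differed by -0.049 and -0.069, and the groups overlapped.

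The order of the arrays in Gad1 was set beside that in other genes of inhibitory and granule neurons, chosen after their values were seen. Slc32a1 read 12.06, 12.28 and 12.27 in wild type and 12.06, 12.15 and 12.30 in the knockouts. For Gad1, Slc32a1 and Gabrd, and for both Gabra6 probe sets, wild type 1 was the lowest wild type array and knockout 1 the lowest knockout array. This order was found in 9.2% of all 12422 probe sets, and Gad2 did not follow it. Across the 6 arrays Gad1 and Slc32a1 had Pearson r = 0.927 (exact permutation p = 0.00139, adjusted p = 0.502 over 6687 probe sets) and Spearman rho = 1 (exact permutation p = 0.00278), and r = 0.76 without the 2 arrays farthest from the median of Gad1. The probe sets of Gabra6 had r = 0.884 (exact permutation p = 0.0167, adjusted p = 0.675) and r = 0.843 (exact permutation p = 0.0667, adjusted p = 0.8) with Gad1, with Spearman rho = 0.77 (exact permutation p = 0.103) and 0.71 (exact permutation p = 0.136). Without the same 2 arrays these r values fell to 0.42 and -0.0017, so the relation of Gad1 to Gabra6 rests on those arrays. None of these relations passed the adjustment.

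**Figure D3:**
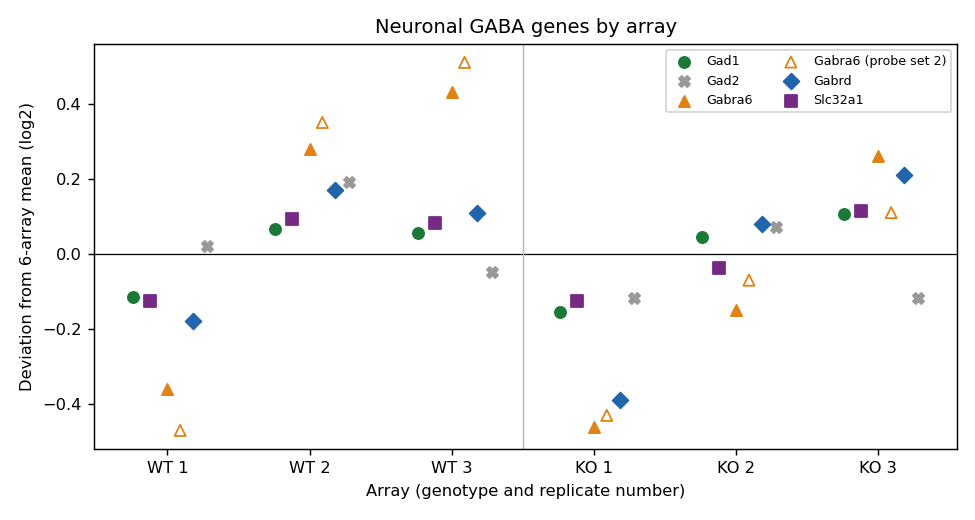
Deviation of each probe set from its own 6-array mean (log2, vertical axis) in each array (horizontal axis) for Gad1, Gad2, Slc32a1, Gabrd and the 2 probe sets of Gabra6. Wild type 1 and knockout 1 lie below 0 for all of these, except that Gad2 lies above 0 in wild type 1, and Gabra6 moves over the widest range.

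The probe sets most like Gad1 over the 6 arrays, among 6687 of other named genes at or above the 40th percentile of mean level, were those of Retreg1, Agt and Mt2. Retreg1, a receptor for autophagy of the endoplasmic reticulum, had Pearson r = 0.992 with Gad1 (exact permutation p = 0.00417, adjusted p = 0.546) and Spearman rho = 0.94 (exact permutation p = 0.0167). Agt, angiotensinogen of astrocytes, had r = 0.985 (exact permutation p = 0.00417, adjusted p = 0.546) and rho = 0.94 (exact permutation p = 0.0167). Mt2, a metallothionein, had r = 0.986 (exact permutation p = 0.0111, adjusted p = 0.645) and rho = 0.77 (exact permutation p = 0.103). Without the 2 arrays farthest from the median of Gad1 these r values were 0.81, 0.90 and 0.76. A total of 21 probe sets had r above 0.95 with Gad1 and 5 had it with Gad2. For Gad2 the closest were Atp1b1, a sodium pump subunit, at r = 0.976 (exact permutation p = 0.00556, adjusted p = 0.999), Pcbd2, a pterin dehydratase, at r = 0.968 and Ap1b1, an adaptor protein of vesicle sorting, at r = 0.962 (exact permutation p = 0.00139 for each of the latter, adjusted p = 0.999). Their Spearman rho was 0.89 (exact permutation p = 0.0333), 1 and 1 (exact permutation p = 0.00278 for each of the latter), and r was 0.92, 0.99 and 0.88 without the 2 arrays farthest from the median of Gad2. None passed the adjustment.

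Markers of the cells that carry these genes were counted beside them, and their part in the values above was not tested. Of 15 probe sets for cerebellar GABAergic interneurons, the median was -0.027, with 5 higher, 10 lower and none past the threshold in limma. Their summed signal (log2) ran from 14.58 to 14.86 in wild type and from 14.45 to 14.70 in the knockouts. Here and in the lists below, signals were added on the linear scale, so the brightest probe sets lead each sum. Such a sum need not follow the dimmer genes of its list, and it does not measure the amount of a cell type. Nos1, a nitric oxide synthase of neurons, had the list's smallest unadjusted p, with a difference of -0.27, followed by Sst with -0.12 and Npy with -0.10. For astrocytes and Bergmann glia, 10 of 23 were higher with a median of -0.0087, and sums ran from 16.15 to 16.25 and from 16.17 to 16.27. In that list Aqp4 was at -0.37, Gfap at 0.26 and Fabp7 at 0.17. Purkinje cell markers had 4 of 17 higher (median -0.048, sums 14.86 to 15.08 against 14.92 to 15), with Cck at -0.26, Cacna1g at -0.23 and Atp2a3 at -0.12. Granule cell markers had 4 of 16 higher (median -0.054, sums 15.68 to 15.90 against 15.71 to 15.85), with Nfia at -0.15 and -0.13 and Pax6 at 0.17, and this list holds Gabra6 and Gabrd too. Granule progenitors had 3 of 12 higher (median -0.059, sums 12.82 to 12.89 against 12.76 to 12.90), with Ptch1 at -0.28, Atoh1 at -0.13 and Mycn at 0.14. That Mycn probe set was dim, at percentile 0.499 of mean level. Oligodendrocytes had 4 of 19 higher (median -0.083, sums 15.08 to 15.35 against 14.89 to 15.23), with Pdgfra at 0.17, Mal at -0.24 and Mobp at -0.34. Markers of neighbouring brain stem and midbrain had 2 of 14 higher (median -0.055, sums 12.30 to 12.37 against 12.24 to 12.36), with Hoxb3 at -0.14, Prph at -0.12 and Phox2a at -0.088. Meninges and choroid plexus had 10 of 17 higher (median 0.043, sums 14.56 to 14.85 against 14.60 to 14.87), with Col3a1 at 0.21, 0.17 and 0.14 at 3 probe sets. No probe set of these lists passed in limma, RMA gives no value of 0, and every summed range overlapped between genotypes. Among all probe sets 62.3% had a lower knockout mean as deposited. As in the members, median centring moves every one of these differences up by the same amount.

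For the series as a whole, array medians ran from 8.87 to 8.94 and arrays correlated with each other at 0.9948 to 0.9974. Of markers of the labelled tissue, Pcp2 of Purkinje cells lay at percentile 98.8 of mean level at its brighter probe set, Calb1 at 96.7 and Zic1 of granule cells at 99.7. Of markers of tissue beside it, Ttr of the choroid plexus lay at percentile 93.5. Slc6a4 of serotonin neurons lay at 70.2 at its brighter probe set and at 31.0 at the other. Slc6a3 and Th of dopamine neurons lay at 66.3 and 52.8. Since probes differ in strength, these percentiles say that none was at the bottom of the range and do not settle the makeup of the samples. The targeted gene L1cam read 8.79, 8.48 and 8.73 in wild type and 8.25, 8.01 and 7.91 in the knockouts. The difference was -0.60 (limma adjusted p = 0.841, unadjusted p = 0.000149). Every knockout array lay below every wild type array, as in 6.63% of all probe sets. The size of the fall was less common, since the lowest difference among all 12422 probe sets was also -0.60 and the highest 0.53. The L1cam difference stayed between -0.70 and -0.53 over the 14 alternatives that kept the probe set. No source used here places the L1cam probes relative to the alteration, so the labels were checked only in part.

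**Figure D4:**
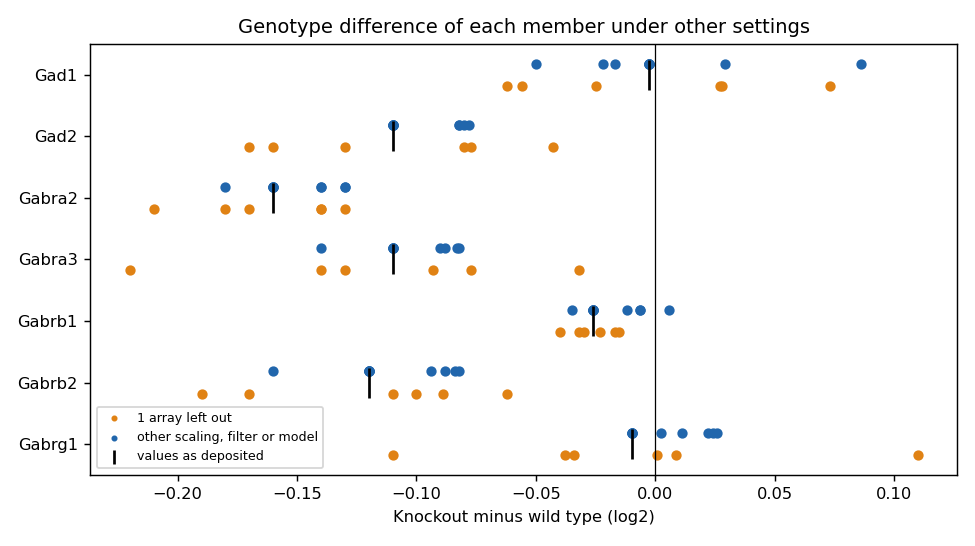
Knockout minus wild type difference (log2, horizontal axis) of each member with the values as deposited (black line), with 1 array left out (orange) and under other scalings, filters or models (blue). Gabra2 runs from -0.21 to -0.13 and stays below 0, as do Gad2, Gabra3 and Gabrb2, while Gad1, Gabrb1 and Gabrg1 fall on both sides of 0.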

How the data were processed

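Cerebellum RNA of 3 L1cam knockout and 3 wild type mice was hybridized to 6 arrays, 1 mouse each. The authors deposited RMA values on the log2 scale, per the submitters' processing notes. RMA corrects background, normalizes between arrays and summarises probes. No RMA version, setting or detection call is given in the sources used here. Because RMA brings arrays towards 1 distribution, a general change of RNA amount cannot be read.

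Of 12488 rows, 66 array controls were left out of the test. In the array's annotation 10833 probe sets had 1 symbol, 396 had several and 1193 had none. Only the first kind names a gene here. Of the 10833, gene identifiers of 10817 were found in the RefSeq table of GRCm38.p6, which was used for names and gene order. Promoter sequences are RefSeq's for the same assembly, and 7 of 7 members matched.

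Genotype was tested with limma 3.58.1 (lmFit, eBayes, 2-sided) in R 4.3.3 over all 12422 probe sets with Benjamini-Hochberg adjustment at 0.05. Exact permutation tests used scipy 1.17.1 or full enumeration of the arrays. Arrays carry no read depth, their number limits precision, and the 95% interval reached 0.158 log2 to either side at the median. On data simulated for this comparison (12422 probe sets) the procedure called 93% of 100 probe sets changed 1.5-fold and 100% of 100 changed 2-fold, with 7 false calls. The simulated noise was independent between probe sets, and the planted changes ease the adjustment. These rates therefore do not carry over to the deposited values. There L1cam, 1.52-fold lower in the knockouts (limma unadjusted p = 0.000149), had an adjusted p of 0.841.

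The members, gene lists, markers and tests were chosen with earlier results of these data known. Named are the members, L1cam, all measured genes of the lists for GABA-A subunits and for GABA synthesis, transport and breakdown, the 3 smallest unadjusted p of each other list, and the 3 probe sets most like Gad1 and Gad2. Slc12a5, Slc12a2, Gphn and Gabbr1, and the tissue markers Pcp2, Calb1, Zic1, Ttr, Slc6a4, Slc6a3 and Th, were named in addition for their roles, after their values were seen. Alternatives were quantile normalization, median centring, cyclic loess, leaving out probe sets under the 40th percentile of mean level, eBayes with a trended and robust prior, weighted arrays, the replicate block, a Gapdh covariate, suffixed probe sets left out, 1 value per gene, a threshold of 0.1 and each array left out.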

Additional observations from a re-analysis of the deposited data

How the results depend on the processing

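No member passed under any of 17 alternatives, of which the exact permutation test could not pass, as its smallest p is 0.1. The filter on dim probe sets kept 3 of the 7 members, Gad1, Gabrb1 and Gabrb2, and gives no value for the others. The count of all probe sets past the threshold was 0 under 10 alternatives and ran from 0 to 1 with 1 array left out, the 1 arising without knockout 3. At an unadjusted p under 0.05 the count was 631 as deposited (limma), 401 with the filter on dim probe sets, 1162 with array weights, 395 without wild type 3 and 1078 without knockout 2. The share of these that were higher was 48.3% as deposited and 62.1% with the filter on dim probe sets. It was 66.0% with quantile normalization, 79.1% with median centring and 66.3% with cyclic loess. Gad2, Gabra2, Gabra3 and Gabrb2 stayed below 0 under every alternative run, with limma adjusted p-values from 0.532 to 1 over these 4. Gad1 turned to 0.029 after median centring and 0.086 with the Gapdh covariate, and ran from -0.062 to 0.073 with 1 array left out. Gabrb1 turned to 0.0058 after median centring. Gabrg1 turned to 0.026 after quantile normalization, 0.022 after median centring, 0.024 after cyclic loess, 0.0025 with array weights and 0.011 with the Gapdh covariate, and ran from -0.11 to 0.11 with 1 array left out. The median of the GABA-A subunit list moved to -0.051 after quantile normalization, -0.14 with array weights and -0.048 with the Gapdh covariate, and ran from -0.16 to -0.048 with 1 array left out. The synthesis and transport median moved to 0.027 with the Gapdh covariate and ran from -0.043 to 0.018 with 1 array left out. The GABA-B and postsynapse median ran from -0.044 to 0.044, and the chloride and glycine median from -0.09 to -0.029. The cause of these changes was not tested. The Gapdh covariate mainly marks knockout 1. Same-numbered arrays deviated from their group means with correlations of 0.16, -0.316 and 0.169, so the numbers were not taken to pair the mice. With the replicate block the difference was -0.16 for Gabra2 (limma adjusted p = 0.946) and 0 probe sets passed, with 634 at an unadjusted p under 0.05. Gad2 and Gabra3 lay near the bottom of the range, where a fall has little room to show.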
